A study of Rattus norvegicus with 12 samples.

Results

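The set described here holds the genes of the 3 TGF-beta ligands (Tgfb1, Tgfb2 and Tgfb3), the genes of their receptors (Tgfbr1, Tgfbr2 and Tgfbr3) and the stromal genes Cd248 and Postn, in rat dorsal root ganglia after spinal nerve ligation (SNL). Its members were all probe sets annotated to these 8 genes, each read on its own because the 2 probe sets of Cd248 differed. They came to 11 of the 15866 probe sets without controls, for 7 of the 8 genes, and none was annotated to Tgfbr2 in the table used here. Tgfb1, Cd248 and Postn ranked 10, 7 and 6 by ligation difference in the LP line. The ranks are among the 1505 of 10411 genes with an adjusted p below 0.05 there (limma). The 3 genes are taken to have been chosen for that place. The LP ligation contrast is therefore given below as a description for every member, without a test. The members are tested in HP, on the assumption that the LP difference made the choice, although results of all 4 groups were known when the list was drawn up.

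A total of 12 arrays of total RNA from L4 and L5 ganglia of adult male Sprague Dawley rats made up the study, 3 in each of 4 groups. LP SNL and HP SNL ganglia came from the Low Pain and High Pain genetic sub-lines 3 days after ligation of the spinal nerves L4 and L5. LP sham and HP sham ganglia came from the same sub-lines after surgery that spared the nerves, and the labels give no day for them. Nothing in the labels says whether the arrays of a group came from separate animals or from pools, so the p-values measure the spread between these arrays only. The sensory neuron markers Prph (5664.3 to 8122.8), Calca (3332.7 to 6666.7) and Scn10a (733.1 to 3007.4) were bright on all 12 arrays, as the labelled tissue would have. Signals are linear array intensities, whose array medians lay between 278.4 and 313.2. Differences are in mean log2(signal + 1), ligated minus sham unless said otherwise, and a call is a limma test with a Benjamini-Hochberg adjusted p below 0.05.

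TGF-beta ligands are secreted in a latent complex that binding proteins such as Ltbp1 tether to the matrix, and proteases or integrins release the active ligand. The active ligand binds the type II receptor Tgfbr2, which recruits the type I receptor Tgfbr1, and the pair signals through Smad2 and Smad3 to matrix genes. Tgfbr3, or betaglycan, is a co-receptor that presents ligand. Postn encodes periostin, a matrix protein that TGF-beta induces in fibroblasts, and Cd248 encodes endosialin, a surface glycoprotein of activated fibroblasts and pericytes. In injured peripheral nerve, TGF-beta is known as a regulator of macrophages, Schwann cells and fibroblasts.

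The promoters of 3 genes whose signals were higher after ligation are shown, since the ligand, the receptor and the matrix gene differ in the letters just before their start sites. They are the 250 bases before the start on the plus strand, from RefSeq on the rat assembly GRCr8, with letters in capitals where a searched motif matched on either strand. The motifs were the AP-1 element TGANTCA, the SMAD box CAGAC, the TATA box TATAAA and the GC box GGGCGG.
Tgfb1: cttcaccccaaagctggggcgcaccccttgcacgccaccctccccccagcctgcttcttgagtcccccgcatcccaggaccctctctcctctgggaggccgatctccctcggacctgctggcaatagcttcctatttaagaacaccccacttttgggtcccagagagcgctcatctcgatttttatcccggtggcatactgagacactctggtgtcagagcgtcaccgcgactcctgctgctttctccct
Tgfbr1: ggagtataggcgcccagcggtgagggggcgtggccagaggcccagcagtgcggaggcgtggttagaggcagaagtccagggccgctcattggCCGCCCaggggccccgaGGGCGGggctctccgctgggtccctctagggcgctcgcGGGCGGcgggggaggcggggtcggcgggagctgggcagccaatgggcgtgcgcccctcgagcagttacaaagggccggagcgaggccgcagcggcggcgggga
Postn: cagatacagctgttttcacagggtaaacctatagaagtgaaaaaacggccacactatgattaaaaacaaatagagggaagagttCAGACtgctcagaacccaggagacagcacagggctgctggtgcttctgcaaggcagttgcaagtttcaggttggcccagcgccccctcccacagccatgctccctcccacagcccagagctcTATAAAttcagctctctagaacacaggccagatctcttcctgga
The Tgfb1 promoter, chr1:90324062-90324311, had a G and C content of 60.0% and none of the 4 motifs. The Tgfbr1 promoter, chr5:66449148-66449397, had a content of 75.6% and 3 GC boxes, which began 158 (read on the minus strand), 141 and 103 bases before the start. The Postn promoter, chr2:140677811-140678060, had a content of 50.8%, close to the median of 51.2% over all promoters, with a SMAD box 166 and a TATA box 44 bases before the start. Among 33469 promoter windows of the same 250 bases, 6.3% held the AP-1 element, 42.9% the SMAD box, 12.9% the TATA box and 30.5% the GC box. A match here describes letters, not a bound site. Cd248 is named only.

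Tgfb1, the ligand that macrophages and many other cells secrete after injury, was the 1 ligand with higher signal after ligation in both lines. Its signals were 204.8, 162.0 and 251.4 in LP SNL ganglia, against 11.8, 25.6 and 31.9 in LP sham ganglia. They were 152.7, 207.5 and 276.9 in HP SNL ganglia, against 41.0, 46.7 and 19.8 in HP sham ganglia. Every ligated array lay above every sham array in each line. Tgfb1 rose in HP by 2.58 ± 0.41 on the log2 scale (SE, 95% interval 1.67 to 3.49, adjusted p = 0.00387 by limma, higher in 3 of 3 arrays). In LP the difference was 3.19 ± 0.41. The sham signals lay low on their arrays, at the 4.6th to 8.1st percentile in LP sham and the 6.4th to 12.0th in HP sham, against the 30.2nd to 43.0th in LP SNL and the 30.8th to 48.0th in HP SNL. The table holds no detection call, so the size of the difference rests on dim sham values: with a pseudocount of 32 in place of 1, it was 2.11 in LP and 1.84 in HP.

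**Figure D1:**
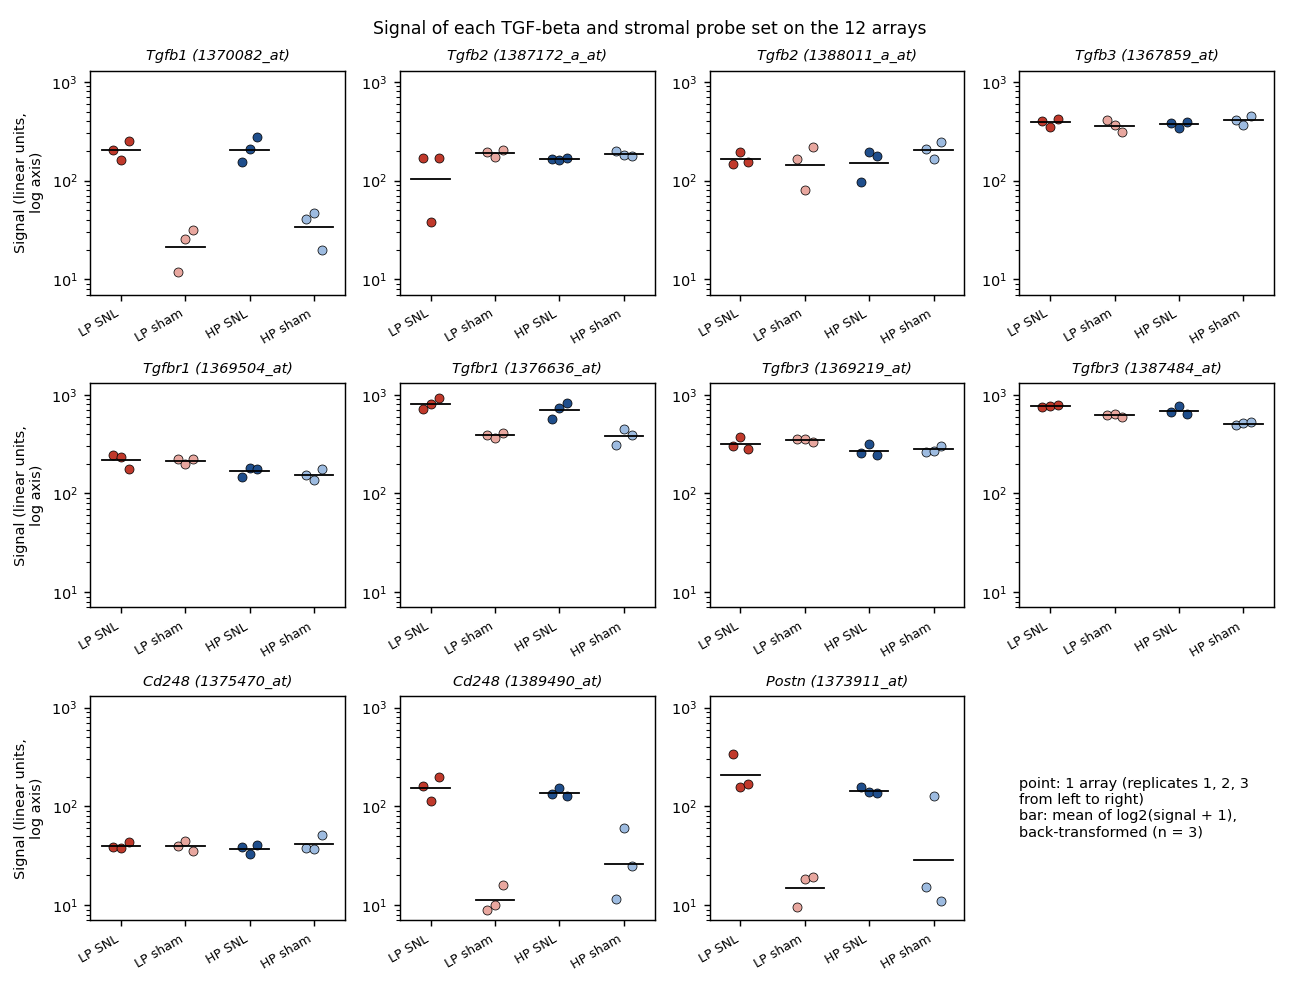
Signal of each of the 11 probe sets on each of the 12 arrays, on a log axis of linear intensity, with 1 panel per probe set, groups in the order LP SNL, LP sham, HP SNL and HP sham, 1 point per array and a bar at the group mean of log2(signal + 1). Tgfb1, Cd248 1389490_at and Postn have every ligated array above every sham array of their line, while Cd248 1375470_at stays between 33.2 and 51.8 on all arrays.

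The other ligand genes gave no such separation. Tgfb2 was read by a pair of probe sets that did not move together. Tgfb2 1387172_a_at read 169.3, 37.7 and 167.7 in LP SNL and 195.9, 174.2 and 204.8 in LP sham, with 166.3, 160.3 and 167.4 in HP SNL and 198.8, 180.8 and 178.9 in HP sham. All ligated arrays lay below the sham arrays in both lines, by −0.17 ± 0.46 in HP (SE, 95% interval −1.20 to 0.85, adjusted p = 0.873). The LP difference of −0.89 ± 0.46 rested on LP SNL replicate 2, at 37.7, and was −0.18 without it. Tgfb2 1388011_a_at overlapped between ligated and sham arrays, at 148.4, 193.9 and 155.5 in LP SNL and 165.8, 79.5 and 217.6 in LP sham, with 97.5, 196.7 and 177.9 in HP SNL and 207.8, 166.0 and 248.7 in HP sham. Its differences were 0.21 ± 0.37 in LP and −0.44 ± 0.37 in HP (95% interval −1.27 to 0.38, adjusted p = 0.531). Tgfb3, a ligand best known from development and wound repair, read 405.4, 351.7 and 422.1 in LP SNL and 406.9, 366.2 and 307.7 in LP sham, with 381.7, 344.7 and 396.2 in HP SNL and 412.4, 362.9 and 452.7 in HP sham. All 4 groups of Tgfb3 overlapped, with differences of 0.13 ± 0.13 in LP and −0.13 ± 0.13 in HP (95% interval −0.43 to 0.17, adjusted p = 0.639).

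Among the receptors, 1 of 2 probe sets of Tgfbr1 and 1 of 2 of Tgfbr3 rose in HP. Tgfbr1, the type I receptor kinase, read 714.2, 802.7 and 932.5 on 1376636_at in LP SNL, against 393.8, 368.5 and 413.0 in LP sham. In HP SNL it read 572.7, 726.3 and 826.1, against 308.8, 450.2 and 393.3 in HP sham. No ligated array fell into the sham range of its line. The HP difference was 0.88 ± 0.18 (SE, 95% interval 0.49 to 1.27, adjusted p = 0.0115 by limma) and the LP difference 1.05 ± 0.18. The other Tgfbr1 probe set, 1369504_at, read 247.9, 231.9 and 178.8 in LP SNL and 222.3, 197.2 and 224.3 in LP sham, with 145.8, 182.3 and 178.2 in HP SNL and 154.6, 135.8 and 175.6 in HP sham. Its ligated and sham arrays overlapped in both lines, with differences of 0.02 ± 0.15 in LP and 0.12 ± 0.15 in HP (95% interval −0.22 to 0.46, adjusted p = 0.703).

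Tgfbr3 read 746.2, 767.5 and 791.3 on 1387484_at in LP SNL, against 620.7, 642.1 and 599.8 in LP sham. In HP SNL it read 672.2, 761.3 and 637.6, against 489.6, 511.5 and 528.4 in HP sham. The groups did not overlap in either line, and the rise was the smallest of the probe sets called in HP, at 0.43 ± 0.09 (SE, 95% interval 0.23 to 0.64, adjusted p = 0.0151 by limma), with 0.31 ± 0.09 in LP. Its call was lost without HP SNL replicate 2 (0.36, adjusted p = 0.0535) and without HP sham replicate 1 (0.40, adjusted p = 0.0632). Tgfbr3 1369219_at read 305.5, 374.4 and 284.8 in LP SNL and 354.0, 354.4 and 335.0 in LP sham, with 258.4, 313.7 and 247.0 in HP SNL and 265.8, 270.9 and 305.0 in HP sham. There the ligated and sham arrays overlapped, with differences of −0.12 ± 0.13 in LP and −0.04 ± 0.13 in HP (95% interval −0.34 to 0.25, adjusted p = 0.887).

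Cd248 was read by 2 probe sets, of which 1 rose and the other stayed level and dim. On 1389490_at it read 160.6, 113.3 and 196.7 in LP SNL, against 9.0, 9.9 and 15.8 in LP sham. In HP SNL it read 132.1, 154.8 and 127.8, against 11.5, 59.8 and 25.1 in HP sham. Each ligated array was above each sham array of its line. This probe set rose by 2.36 ± 0.48 in HP (SE, 95% interval 1.30 to 3.42, adjusted p = 0.0122 by limma) and differed by 3.65 ± 0.48 in LP. With a pseudocount of 32 the differences were 2.09 in LP and 1.48 in HP. On 1375470_at, by contrast, Cd248 read 38.9, 37.8 and 43.2 in LP SNL and 39.5, 45.0 and 35.4 in LP sham, with 38.6, 33.2 and 40.7 in HP SNL and 37.8, 37.3 and 51.8 in HP sham. Those signals lay between the 8.7th and 15.3rd percentile of their arrays, and the differences were 0.00 ± 0.15 in LP and −0.16 ± 0.15 in HP (95% interval −0.49 to 0.18, adjusted p = 0.589). Which part of the transcript each probe set reads was not analysed here.

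Postn, the matrix gene, was higher after ligation in LP and fell short of the test in HP. It read 342.3, 158.5 and 168.2 in LP SNL, against 9.5, 18.2 and 19.2 in LP sham. In HP SNL it read 157.5, 140.4 and 135.7, against 15.4, 126.9 and 11.0 in HP sham. Ligated and sham arrays did not overlap in either line, but HP sham replicate 2, at 126.9, lay close to the HP SNL arrays. The LP difference was 3.72 ± 0.75, and 2.35 with a pseudocount of 32. The HP difference of 2.31 ± 0.75 did not pass (SE, 95% interval 0.64 to 3.98, adjusted p = 0.0823 by limma), and without HP sham replicate 2 it was 3.37 ± 0.38 and passed (adjusted p = 0.00222).

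HP sham replicate 2 was also the highest HP sham array for Tgfb1 (46.7) and Cd248 1389490_at (59.8). Without it the HP differences were 2.81 for Tgfb1 (adjusted p = 0.00818 by limma) and 2.94 for Cd248 1389490_at (adjusted p = 0.00305). On that array the summed signal of 20 fibroblast markers was 43381, against 41052 and 41458 on the other HP sham arrays. The summed signal of 14 macrophage markers was 10124 on it, against 9249 and 8882, and that of 12 pericyte and smooth muscle markers was 5534, against 6090 and 5911. The actin 3′ to 5′ signal ratio, a sign of RNA integrity, was 1.483 on it, against 1.847 and 1.772. The same ratio for GAPDH went the other way, at 1.17 on it, against 1.12 and 1.095. Acta1, the skeletal muscle actin, read 435.6 on it, against 1232.7 and 1015.7. The part of these values in the 3 genes' signals was not tested.

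In all, 4 of the 11 probe sets rose in HP and none fell, where 5.42% of all probe sets rose and 5.34% fell. In 5 of 11 the HP SNL arrays were all above the HP sham arrays and in 1 of 11 all below, against a background of 15.6% above and 15.9% below. The members' median HP difference was 0.12, beside −0.01 over all probe sets. In LP, 4 of 11 had a difference of at least 1 (4.86% of all probe sets), and 5 of 11 lay fully above and 1 of 11 fully below sham (15.4% and 13.6% of all). Nothing is read from these LP counts, since 3 of the genes are taken to have been chosen by their LP difference. The HP counts are not independent of the choice either, as HP results were known when the list was drawn up. Among the genes called in HP, Tgfb1 ranked 11 and Cd248 ranked 18 by their difference. The LP median was 0.21, beside 0.03 over all. Probe sets of the same gene share their transcripts, so these are not independent counts. The 4 HP calls came down to 1 when the actin 3′ to 5′ signal ratio was added as a covariate, and when only the 6 HP arrays were fitted. Tgfb1 kept its call in both, at adjusted p = 0.0256 and 0.0221. Over all probe sets, HP calls fell from 1708 to 915 with the covariate and to 1069 with only the HP arrays. The actin ratio was 1.118 to 1.342 in HP SNL and 1.483 to 1.847 in HP sham, without overlap, and 1.113 to 1.125 in LP SNL and 0.993 to 1.877 in LP sham. The GAPDH 3′ to 5′ signal ratio overlapped between the HP groups, at 1.066 to 1.244 in HP SNL and 1.095 to 1.17 in HP sham. With the actin covariate, Tgfbr1 1376636_at stood at 0.78 (adjusted p = 0.0778), Tgfbr3 1387484_at at 0.47 (adjusted p = 0.0521) and Cd248 1389490_at at 1.83 (adjusted p = 0.0918).

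**Figure D2:**
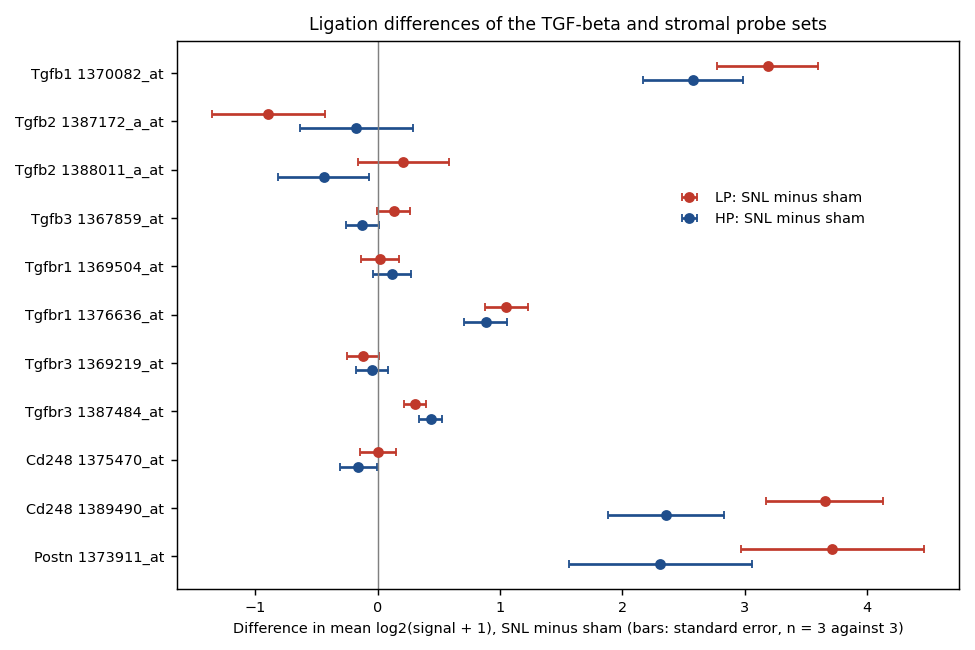
Difference in mean log2(signal + 1), SNL minus sham, for each of the 11 probe sets, with LP above HP in each row and bars of 1 standard error from the limma fit (3 arrays against 3). Tgfb1, Cd248 1389490_at and Postn stand furthest to the right in both lines, and Tgfbr1 and Tgfbr3 each have 1 probe set right of 0 and 1 near 0.

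The lines were then set against each other. After ligation, LP minus HP was −0.02 ± 0.41 for Tgfb1, 0.15 ± 0.48 for Cd248 1389490_at and 0.09 ± 0.15 for Cd248 1375470_at. For Postn it was 0.53 ± 0.75, with the lowest LP SNL array at 158.5 and the highest HP SNL array at 157.5. After sham surgery, LP minus HP was −0.63 ± 0.41 for Tgfb1, −1.15 ± 0.48 for Cd248 1389490_at and −0.07 ± 0.15 for Cd248 1375470_at. For Postn it was −0.88 ± 0.75, and 0.19 without HP sham replicate 2. These 3 genes are taken to have been chosen on LP arrays and carry no test here. Of the other 7 probe sets, none was called between the lines, after ligation (background 0.145%, 1 with an unadjusted p below 0.05) or after sham (background 0.0441%, 3 with an unadjusted p below 0.05).

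The line differences that came closest were those of the receptors. Tgfbr1 1369504_at was higher in LP by 0.37 ± 0.15 after ligation (95% interval 0.03 to 0.71, adjusted p = 0.436) and by 0.47 ± 0.15 after sham (95% interval 0.13 to 0.81, adjusted p = 0.402). Tgfbr3 1369219_at was higher in LP sham by 0.31 ± 0.13 (95% interval 0.02 to 0.60, adjusted p = 0.504) and Tgfbr3 1387484_at by 0.28 ± 0.09 (95% interval 0.08 to 0.49, adjusted p = 0.399). In these 3 of 7 probe sets every LP sham array lay above every HP sham array, where 8.47% of all probe sets did so, and none of them passed. Tgfbr1 1376636_at differed by 0.21 ± 0.18 after ligation (adjusted p = 0.727) and 0.04 ± 0.18 after sham (adjusted p = 0.962). For Tgfb2 and Tgfb3 the adjusted p values between lines ran between 0.656 and 0.984.

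Whether ligation acted differently in the 2 lines was read from the interaction, the LP difference minus the HP difference. It was 0.61 ± 0.58 for Tgfb1, 1.30 ± 0.67 for Cd248 1389490_at, 0.16 ± 0.21 for Cd248 1375470_at and 1.41 ± 1.06 for Postn. The Postn value was 0.35 without HP sham replicate 2. Of the 7 tested probe sets none was called by limma, where 0% of all probe sets were, and none had an unadjusted p below 0.05. Their values ran from −0.72 ± 0.65 for Tgfb2 1387172_a_at to 0.65 ± 0.52 for Tgfb2 1388011_a_at, with −0.10 ± 0.22 and 0.17 ± 0.25 for the Tgfbr1 probe sets and −0.08 ± 0.18 and −0.13 ± 0.13 for those of Tgfbr3.

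In the order of the 4 group means, both SNL groups stood above both sham groups in the 4 probe sets called in HP and in Postn, and both stood below them in Tgfb2 1387172_a_at. For Tgfb1, HP SNL and LP SNL overlapped, both lay beyond HP sham, and HP sham and LP sham overlapped. Cd248 1389490_at and Tgfbr1 1376636_at had LP SNL and HP SNL overlapping at the top, a gap beyond the spread, and the sham groups overlapping below. Tgfbr3 1387484_at ran LP SNL, HP SNL, LP sham and HP sham, and of its neighbours LP sham and HP sham alone were fully separate. For Postn, LP SNL, HP SNL and HP sham were fully separate in that order, and HP sham and LP sham overlapped. In Tgfbr1 1369504_at and Tgfbr3 1369219_at both LP groups stood above both HP groups. For Tgfbr1 1369504_at LP SNL overlapped LP sham, LP sham lay fully above HP SNL, and HP SNL overlapped HP sham, while for Tgfbr3 1369219_at every pair of neighbours overlapped. In Tgfb2 1387172_a_at, HP sham lay fully above HP SNL and the other neighbours overlapped.

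The rest of the pathway was read through 5 lists with 90 measured genes besides the members, 1 probe set a gene. In LP, 29 genes rose and 3 fell (35.6% called, where 12.1% of all probe sets were), with a median difference of 0.31. In HP, 19 rose and 4 fell (25.6% called, where 10.8% of all were), with a median of 0.25. Those background shares are over all probe sets, while each list gene is read on its brightest. In a fit with 1 probe set a gene, 1505 of 10411 genes were called in LP and 1417 of 10411 in HP. The lists were written with earlier results of these data known. The lines had 15 rising and 3 falling genes in common, which is 15 of 29 and 15 of 19 of the rises. None of the 90 genes was called in the interaction, so a call given for 1 line below does not show that the lines differed. The lines do not share sham arrays, but all 12 arrays share 1 estimate of the spread. Single arrays moved these counts: the LP count of 32 was 17 and 19 without LP SNL replicates 1 and 3, and 21 and 20 without LP sham replicates 1 and 2. The HP count of 23 was 13 and 11 without HP SNL replicates 2 and 3, and 14 and 13 without HP sham replicates 1 and 3. Calls over all probe sets also fell without these arrays. In the same order, they went from 1922 to 1283, 1248, 1376 and 1395 in LP. In HP they went from 1708 to 1102, 1084, 981 and 1006. The counts per list below are to be read beside this wider loss.

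Ligands of the wider superfamily mostly stayed short of the test. In LP, 1 of 14 measured genes rose and 1 fell (median −0.10), and in HP none rose and 1 fell (median −0.02). Inhbb, the beta B subunit of activins, fell in both lines, at 39.2 ± 22.5 in LP SNL against 109 ± 8.32 in LP sham (SD, n = 3 each; difference −1.59 ± 0.30, adjusted p = 0.00719 by limma), and at 26.0 ± 1.91 in HP SNL against 155 ± 13.1 in HP sham (−2.53 ± 0.30, adjusted p = 0.000912 by limma). Bmp7, a bone morphogenetic protein, rose in LP to 376 ± 60.7, against 183 ± 58.3 in LP sham (1.07 ± 0.21, adjusted p = 0.00879 by limma). With only the LP arrays, neither the LP fall of Inhbb (adjusted p = 0.0729) nor the rise of Bmp7 (adjusted p = 0.0769) passed. Inhba, the beta A subunit, was called in neither line.

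Of 11 measured receptors and co-receptors besides the members, 3 rose in LP (median 0.30) and 2 in HP (median 0.21), all near the threshold. Eng, or endoglin, an endothelial co-receptor, rose by 0.84 ± 0.24 in LP (adjusted p = 0.0466) and by 0.91 ± 0.24 in HP (adjusted p = 0.0377 by limma). Rgma, a co-receptor for bone morphogenetic proteins, rose by 2.14 ± 0.56 in LP (adjusted p = 0.0336), and Bambi, a decoy receptor, by 0.58 ± 0.15 in LP (adjusted p = 0.0313). Acvr1, a type I receptor, rose by 0.53 ± 0.13 in HP (adjusted p = 0.0274). Leaving out single arrays took this list to 0 calls in each line. Acvr1 lost its call without any 1 of the 6 HP arrays, and Eng lost its HP call without HP SNL replicate 2 or 3, any HP sham array or LP SNL replicate 3. In LP, Bambi lost its call without LP SNL replicate 2 or 3 or LP sham replicate 1 or 3, and Rgma without any LP SNL array, LP sham replicate 1 or 2 or HP sham replicate 1. Eng lost its LP call without any single LP array but LP SNL replicate 2, and without any HP array but HP SNL replicate 2. Outside the left-out arrays, Eng lost both calls with median centring (adjusted p = 0.0723 in LP and 0.0546 in HP), quantile normalization (0.0705 and 0.0592) and the actin covariate (0.0674 and 0.1). Bambi lost its call with array weights (adjusted p = 0.0544), median centring (0.0603), the actin covariate (0.0508) and only the LP arrays (0.124), and with only the LP arrays Rgma (0.0929) and Eng (0.143) lost theirs too. Eng is also 1 of the 12 measured endothelial markers below. Dcn, Col1a1, Col3a1, Acta2 and Cnn1 likewise stand both in a pathway list and in a marker list below. The pathway and marker counts are therefore not independent.

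Of 21 measured genes of latency, activation and antagonism, 8 rose and 2 fell in LP (median 0.34), and 7 rose and 2 fell in HP (median 0.32). Ltbp1, which tethers the latent ligand, had a signal of 584 ± 38.8 in LP SNL against 185 ± 66.8 in LP sham, and 424 ± 37.1 in HP SNL against 162 ± 13.9 in HP sham (SD, n = 3 each). It rose by 1.72 ± 0.23 in LP (adjusted p = 0.00131) and 1.39 ± 0.23 in HP (adjusted p = 0.00494 by limma). Mmp2, a gelatinase that can release latent TGF-beta, rose by 1.11 ± 0.11 in LP (adjusted p = 0.000292) and 0.87 ± 0.11 in HP (adjusted p = 0.00145). Fbn1, the fibrillin to which latent complexes bind, rose by 1.10 ± 0.14 in LP (adjusted p = 0.00114) and 0.87 ± 0.14 in HP (adjusted p = 0.00501). Fstl1, a secreted follistatin relative, fell by 0.68 in LP (adjusted p = 0.00393) and by 0.50 in HP (adjusted p = 0.0207). Nog, or noggin, which binds bone morphogenetic proteins, fell by 1.18 in LP (adjusted p = 0.00398) and by 0.99 in HP (adjusted p = 0.0115). The list's 10 LP calls were 6, 6 and 5 without LP SNL replicate 1, LP SNL replicate 2 and LP sham replicate 2, and its 9 HP calls were 4, 5 and 5 without HP SNL replicate 2, HP SNL replicate 3 and HP sham replicate 3. The HP fall of Fstl1 did not pass without HP SNL replicate 2 or 3, without HP sham replicate 2 or 3, or with only the HP arrays (adjusted p = 0.0835). That of Nog did not pass with the actin covariate (adjusted p = 0.0852) or with only the HP arrays (adjusted p = 0.0617).

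Of 20 intracellular components, 4 rose in LP (median 0.07), and 1 rose and 1 fell in HP (median 0.14). Smad1, which carries signals of bone morphogenetic protein receptors, rose by 0.97 ± 0.10 in LP (adjusted p = 0.000278) and 0.89 ± 0.10 in HP (adjusted p = 0.000666 by limma). Smad3, which Tgfbr1 phosphorylates, had 322 ± 26.2 in LP SNL against 188 ± 12.4 in LP sham (0.77 ± 0.14, adjusted p = 0.00523), with 278 ± 38.3 in HP SNL against 214 ± 29.0 in HP sham, which did not pass. Skil, a repressor of Smad complexes, rose by 0.65 ± 0.13 in LP (adjusted p = 0.0108). Fkbp1a, which binds type I receptors, rose by 0.36 ± 0.10 in LP (adjusted p = 0.0384), and Smad9 fell by 0.71 in HP (adjusted p = 0.0468). Fkbp1a lost its call without LP SNL replicate 1 or 3, any LP sham array, HP SNL replicate 1 or any HP sham array. Smad9 lost its call without HP SNL replicate 2 or 3, any HP sham array, LP SNL replicate 2 or 3 or LP sham replicate 2 or 3. Fkbp1a also lost it with median centring (adjusted p = 0.084), the actin covariate (0.0542) and only the LP arrays (0.132), and Smad9 with a trended and robust variance (0.0594) and only the HP arrays (0.0501). With only the LP arrays Skil did not pass (adjusted p = 0.0591). Smad2, Smad4 and the inhibitory Smad7 were called in neither line.

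Of 24 measured mesenchymal target genes, 13 rose in LP (median 0.57) and 9 in HP (median 0.46), and none fell in either. Timp1, an inhibitor of matrix metalloproteinases, rose by 1.73 ± 0.17 in LP (adjusted p = 0.000243) and by 1.73 ± 0.17 in HP (adjusted p = 0.00038 by limma). Fn1, the matrix protein fibronectin, rose by 1.32 ± 0.19 in LP (adjusted p = 0.00166) and 1.26 ± 0.19 in HP (adjusted p = 0.00256). Tgfbi, a secreted matrix protein named for its induction by TGF-beta, rose by 0.90 ± 0.17 in each line (adjusted p = 0.00675 in LP and 0.0079 in HP). Tnc, or tenascin C, rose by 1.61 ± 0.20 in LP (adjusted p = 0.000753) and by 0.95 ± 0.20 in HP (adjusted p = 0.0132). Loxl1, a crosslinking enzyme of elastic fibres, rose by 1.72 ± 0.43 in LP (adjusted p = 0.0287) and by 2.20 ± 0.43 in HP (adjusted p = 0.0107). The 13 LP calls were 5, 6 and 8 without LP SNL replicate 1, LP SNL replicate 3 and LP sham replicate 1, and the 9 HP calls were 4, 5 and 5 without HP SNL replicate 3, HP sham replicate 1 and HP sham replicate 3. The Tnc call in HP was lost without HP SNL replicate 3 or HP sham replicate 3, and the Loxl1 call in LP without LP SNL replicate 1 or 2 or LP sham replicate 1 or 2, after quantile normalization (adjusted p = 0.0862) and with only the LP arrays (adjusted p = 0.122). With the actin covariate, Tgfbi (adjusted p = 0.0651), Tnc (adjusted p = 0.0687) and Loxl1 (adjusted p = 0.0592) did not pass in HP, nor Loxl1 in LP (adjusted p = 0.054), and with only the LP arrays Tgfbi did not pass in LP (adjusted p = 0.0534).

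**Figure D3:**
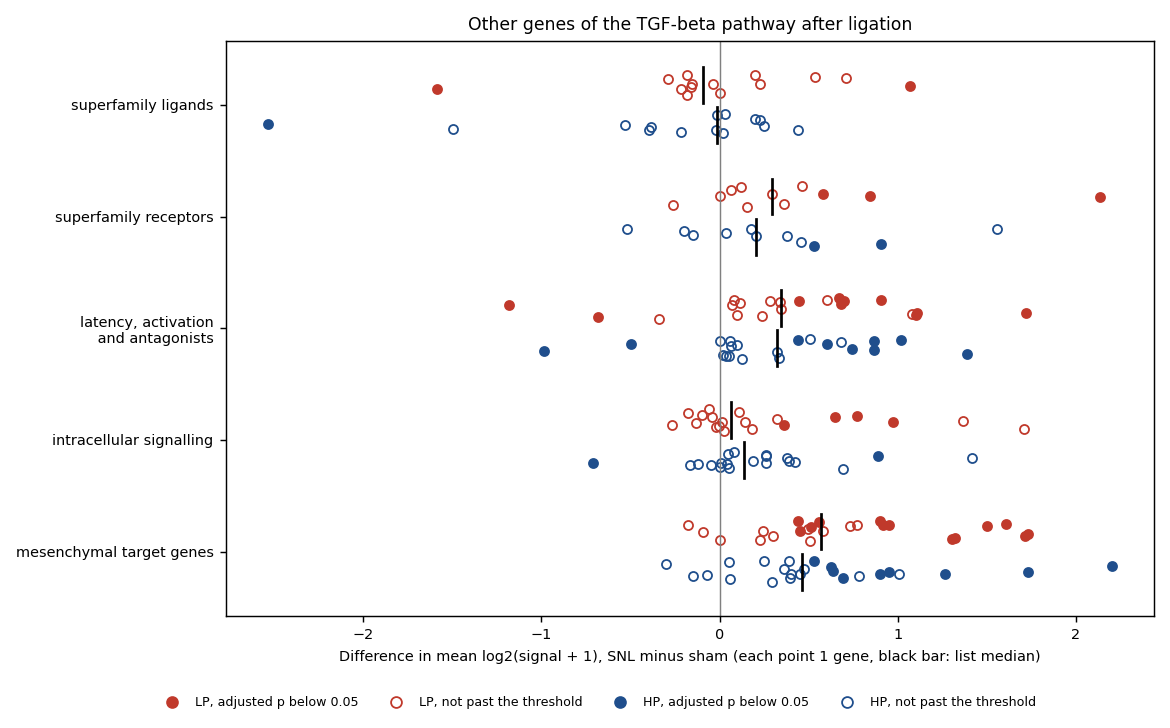
Difference in mean log2(signal + 1), SNL minus sham, for each of the 90 genes of the 5 pathway lists besides the members, 1 point a gene, with LP above HP, filled points for an adjusted p below 0.05 and a black bar at the list median. The mesenchymal target genes lie furthest right, with medians of 0.57 in LP and 0.46 in HP, and Inhbb is the lowest point in both lines.

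The marker lists of other cells are read beside the 12.1% of all probe sets called in LP and the 10.8% called in HP. With 1 probe set a gene, as in these lists, 1505 of 10411 genes were called in LP and 1417 of 10411 in HP. Of 20 fibroblast markers, 10 rose and 2 fell in LP and 8 rose and 1 fell in HP, and their summed signal was 44054 to 56781 in LP SNL against 37994 to 41502 in LP sham, and 50517 to 55672 in HP SNL against 41052 to 43381 in HP sham. Of 14 macrophage markers, 10 rose in each line, at a sum of 14921 to 17353 in LP SNL against 7004 to 8014 in LP sham, and of 17572 to 20585 in HP SNL against 8882 to 10124 in HP sham. Of 12 pericyte and smooth muscle markers, 2 rose in each line, at 7234 to 7560 in LP SNL against 5825 to 6095 in LP sham, and 6706 to 7486 in HP SNL against 5534 to 6090 in HP sham. Of 12 endothelial markers, 3 rose in each line, at 4656 to 5140 in LP SNL against 3514 to 3699 in LP sham, and 4648 to 5209 in HP SNL against 3515 to 3602 in HP sham. Proliferation markers rose in 8 of 10 in LP and 4 of 10 in HP. None of these 5 sums overlapped between ligated and sham arrays of a line, proliferation included at 3238 to 3623 in LP SNL against 1656 to 2036 in LP sham, and 2819 to 3795 in HP SNL against 1954 to 2116 in HP sham.

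Among defining markers, the fibroblast receptor Pdgfra averaged 1139.3 in LP SNL against 557.3 in LP sham, and 837.9 in HP SNL against 491.9 in HP sham. The macrophage gene Cd68 averaged 598.1 in LP SNL against 154.1 in LP sham, and 754.2 in HP SNL against 224.7 in HP sham. Some other defining markers did not rise so. Aif1, also a macrophage marker, averaged 534.1 in LP SNL against 508.9 in LP sham, and 451.8 in HP SNL against 445.2 in HP sham. The pericyte marker Cspg4 averaged 186.9 in LP SNL against 155.9 in LP sham, and 146.0 in HP SNL against 186.6 in HP sham. Rgs5, also a pericyte marker, was called higher in both lines. It averaged 485.4 in LP SNL against 207.8 in LP sham, and 372.8 in HP SNL against 212.7 in HP sham. Pdgfrb, a pericyte marker called in neither line, averaged 243.5 in LP SNL against 171.6 in LP sham, and 214.3 in HP SNL against 174.6 in HP sham. No marker was at 0 on any array. Sensory neuron markers fell in 7 of 11 in LP and 6 of 11 in HP, skeletal muscle markers fell in 0 of 11 in LP and 3 of 11 in HP, and none of 9 T cell markers was called. The summed skeletal muscle signal was 4234 to 5344 in HP sham, above all other groups. It was 3296 to 3558 in HP SNL, 3665 to 3835 in LP SNL and 3556 to 3875 in LP sham. The part of this in the HP differences was not tested. Satellite glia markers rose in 3 of 7 and Schwann cell markers in 1 of 7 in each line. Whole ganglia were measured, so more cells of a type and more RNA per cell cannot be told apart, and the part of these cells in the members' differences was not tested.

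**Figure D4:**
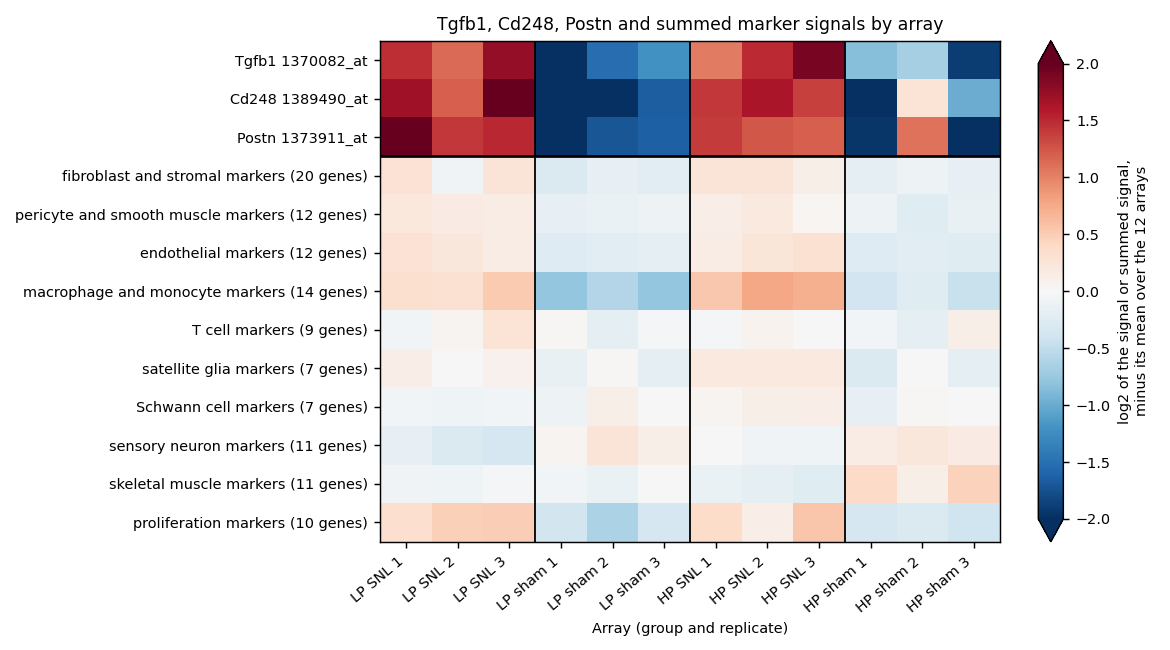
Heat map with arrays in columns, in the order LP SNL, LP sham, HP SNL and HP sham with replicates 1 to 3, and in rows the signal of Tgfb1, Cd248 1389490_at and Postn above the summed signal of each marker list, where colour gives log2 signal minus the row's mean over the 12 arrays, clipped at −2 and 2. The 3 upper rows are red in ligated arrays and blue in sham arrays except Cd248 and Postn on HP sham replicate 2, and the macrophage and proliferation sums follow the same split while the sensory neuron sum is lower after ligation.

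The genes with group profiles most like the members were sought among 9887 of the 15866 probe sets. Likeness was the root mean square difference over the 4 centred group means. The dimmest 25% of probe sets were left out of this search. Tgfb1, Postn and both Cd248 probe sets lie among those dimmest, so they were compared with brighter genes only. Closest to Tgfb1 were A2m (0.154 log2 units), C9h6orf141 (0.154), Atf3 (0.216), Metrn (0.271) and Sox11 (0.288). A2m encodes the protease inhibitor alpha-2-macroglobulin, which also binds TGF-beta, while Atf3 and Sox11 encode transcription factors known from injured sensory neurons. Closest to Postn were Cryba2 (0.300), C9h6orf141 (0.305), Atf3 (0.329), A2m (0.355) and Sox11 (0.371). Closest to Cd248 1389490_at were C9h6orf141 (0.281), A2m (0.327), Cxcl14 (0.359), Cryba2 (0.379) and Metrn (0.390). The 4 means carry little shape, so any searched gene that rose by a like amount in both lines ranks high. The flat profile of Cd248 1375470_at was nearest to those of Fam174c (0.0049), Cept1 (0.0078), Prkar2a (0.0082), Rfx1 (0.0145) and C10h1orf35 (0.0148).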

How the data were processed

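Total RNA of 12 rat ganglion samples was hybridised to Affymetrix arrays, and groups and replicate numbers were taken from the sample titles. The deposited table holds 1 linear intensity per probe set and array, between 0 and 13930.7. The submitters' processing notes name RMA without a version, but each array had the same mean of 500.1 after trimming 2% at each end, so the steps behind the values are not settled. Of 15923 probe sets, 57 controls were left out. Names came from the platform annotation, updated through a RefSeq table of GRCr8.

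log2(intensity + 1) of all 12 arrays entered a limma 3.58.1 fit (R 4.3.3) of 4 group means with 8 residual degrees of freedom. Tests were two-sided at an adjusted p of 0.05 (Benjamini-Hochberg, 15866 probe sets). The fit was tested on simulated data. The number of arrays limits the precision.

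The members and lists were chosen with earlier results of these data known. Named genes are all member probe sets and up to 4 called genes with the smallest p per pathway list and line. The 5 nearest profiles and some of the leading markers of the cell lists are named too. A gene with several probe sets is given by its brightest, except for the members. Alternatives were other pseudocounts, quantile normalization, median centring, array weights, a trended and robust variance, a filter on dim probe sets, 1 probe set a gene, an actin ratio covariate, only the compared arrays, a replicate block and each array left out.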

Additional observations from a re-analysis of the deposited data

How the results depend on the processing

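Of 712 tested values of the members under 23 alternatives, 688 kept their direction and their side of the threshold, 8 lost the call, 2 gained it and 14 reversed, none of those past the threshold. The 4 HP calls became 1 with the actin ratio as covariate, 1 with only the arrays compared and 2 without the dimmest 25% of probe sets, which leaves 7 of the 11 members, and were 3 to 5 with single arrays left out. The 4 LP differences of at least 1 became 1 without the dimmest probe sets and 3 to 4 with single arrays left out. The filter on dim probe sets removed Tgfb1, Postn and both Cd248 probe sets. Its lower counts come from that removal, and no HP call among the members it kept was lost. The pathway count of 23 in HP became 11 with the actin covariate and 11 to 25 with single arrays left out, and that of 32 in LP became 11 with only the LP arrays and 17 to 30 with single arrays left out. Calls over all probe sets moved too. In HP, 1708 became 915 with the actin covariate and 1069 with only the HP arrays. In LP, 1922 became 834 with only the LP arrays. With single arrays left out, all calls were 981 to 1775 in HP and 1248 to 1837 in LP. The members' counts of line and interaction calls stayed at 0.

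The replicate numbers did not pair the arrays, since 1 of 12 same-number correlations of deviations was over 0.1 and an array correlated best with its own number in the other group in 9 of 24 comparisons. With a replicate block the pathway count in HP was 15, calls over all probe sets were 1291 of 1708 in HP and 1535 of 1922 in LP, and the HP adjusted p was 0.012 for Tgfb1, 0.01 for Tgfbr1 1376636_at, 0.0362 for Tgfbr3 1387484_at, 0.0231 for Cd248 1389490_at and 0.111 for Postn. Among named pathway genes the block ended the calls of Eng (adjusted p = 0.0783 in LP and 0.0662 in HP), Bambi (0.0531), Acvr1 (0.0504), Fkbp1a (0.0845) and Smad9 (0.0846).

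The reversed values were small, given here with the range over single arrays left out where such an array reversed them. Between lines after ligation, Tgfb2 1387172_a_at was 0.0332 without LP SNL replicate 2 (−1.04 to 0.0332) and Tgfb2 1388011_a_at −0.182 without HP SNL replicate 1 (−0.182 to 0.321). After sham, Tgfb2 1387172_a_at was −0.025 with array weights and −0.0095 without LP sham replicate 3 (−0.0095 to 0.107), and Tgfbr1 1376636_at −0.0408 with the actin covariate and −0.104 without HP sham replicate 1 (−0.104 to 0.167). In HP, Tgfb3 was 0.0391 and Tgfbr3 1369219_at 0.0213 with the actin covariate, Tgfbr3 1369219_at was 0.0238 without HP SNL replicate 3 and 0.0171 without HP sham replicate 3 (−0.148 to 0.0238), and Cd248 1375470_at was 0.0556 after quantile normalization. Interactions were 0.042 for Tgfbr1 1369504_at without LP SNL replicate 3 (−0.1998 to 0.042), and 0.0259 and 0.0045 for Tgfbr3 1369219_at without HP SNL replicate 2 and LP SNL replicate 3 (−0.192 to 0.0259). The cause was not tested. Signals near the array's low end limit how well the size of a difference is known. Such were the sham signals of Tgfb1, Cd248, Postn and Loxl1 and the ligated signals of Inhbb.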
